A study of Mus musculus with 12 samples.

Results

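This account follows 45 genes of the fibroblasts and extracellular matrix of the mammary gland: collagens, proteoglycans, elastic fibre and adhesive glycoproteins, enzymes that process collagen, and receptors and secreted factors of fibroblasts. They were chosen by name, with earlier results of these data known. All 45 were found among the 11834 genes of the deposited expression table. The table comes from polyA RNA of the lactating gland of C57BL/6 mice, with 1 library per mouse. The 7 knockout (KO) mice were Btn1a1-/-, lacking butyrophilin 1a1, a protein of the membrane that wraps milk fat globules, and the 5 wild-type (WT) mice carried the gene. All were in lactation 1, with 5 KO and 3 WT glands taken on day 10. The exceptions were day 8 for KO replicate 3, day 11 for KO replicate 4, day 9 for WT replicate 2 and day 11 for WT replicate 3. Per the labels, the mutant line was kept apart by mating heterozygote pairs, while the WT mice were harem bred, and the feed was a Formulab or an open formula diet, not given per mouse. Genotype, breeding and diet cannot be told apart, and the labels name no cell type to which the loss of the gene was limited.

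In the lactating gland the secretory epithelium fills most of the tissue, and the stroma is reduced to thin septa of fibroblasts, vessels and fat cells around the alveoli. Fibroblasts secrete fibrillar collagens, which are trimmed, assembled with small proteoglycans and crosslinked by lysyl oxidases. Basement membrane collagens, nidogens and perlecan lie as a sheet under the epithelium and around vessels, and several cell types make them. Matricellular proteins such as periostin, tenascin C and thrombospondins bind this scaffold and cell surfaces without building it, and are best known from tissues that are being remodelled.

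The values were log2 CPM, the log2 of read counts scaled to the library total, which the authors had already quantile-normalized, so that every library holds nearly the same set of values. Read totals per library are not in the table, and the depth behind each value is unknown. The targeted gene, Btn1a1 (chromosome 13, 23456992 to 23465901, mm10), lay between 5.10 and 6.02 log2 CPM in the 7 KO libraries and between 11.03 and 11.23 in the 5 WT libraries, so no library went against its label. Markers of secretory luminal cells, 10 of 10 in the table, summed to 26700 to 66400 CPM in KO and 54100 to 55700 in WT. Most of this sum is the casein gene Csn3, at 15.57 log2 CPM in 10 of 12 libraries and at 14.35 in KO replicate 2, the library of lowest sum. Quantile normalization sets such a top value by the rank of the gene. The sum therefore follows the rank of Csn3 and cannot show the share of luminal cells. In KO replicate 2, Prlr (5.62) was also the lowest of all 12 libraries, and Xdh (10.42) and Gata3 (3.46) lay below every WT library. Apart from Csn3 and Prlr, the markers were not the lowest of their group there. These were Elf5 (9.10), Lalba (11.79), Epcam (7.07), Krt8 (6.43), Krt18 (5.92), Cldn3 (3.53), Xdh and Gata3. Of 12 skeletal muscle markers, all in the table, the sum ran from 103 to 1690 CPM in KO and from 73.6 to 498 in WT. Basal and myoepithelial markers (10 of 10) summed to 582 to 897 CPM in KO and 517 to 695 in WT, and macrophage markers (10 of 10) to 63.9 to 92.5 CPM in KO and 56.0 to 74.3 in WT. Adipocyte markers (8 of 8) summed to 366 to 640 CPM in KO and 372 to 590 in WT, and endothelial markers (10 of 10) to 54.0 to 95.5 CPM in KO and 66.2 to 107 in WT. Pericyte and vascular smooth muscle markers (8 of 10, without Higd1b and Cox4i2) summed to 197 to 262 CPM in KO and 203 to 266 in WT. Most of this sum is Myh11 (6.97 to 7.54 log2 CPM in KO, 7.25 to 7.66 in WT). That gene is also in the basal and myoepithelial list, so the sum cannot show the share of pericytes. Of 10 genes listed for lymph node and lymphocytes only Ptprc was in the table, at 5.50 to 11.0 CPM in KO and 5.17 to 11.2 in WT. Leukocytes in general, macrophages included, express Ptprc, so lymphocytes were not measured apart.

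The comparison of KO with WT glands asks which of these matrix genes differ between the groups. The loss of Btn1a1 cannot be told apart from breeding and diet. Of the 45 genes, 6 rose in KO, 1 fell and 38 did not pass the test (limma, adjusted p under 0.05 over the whole table). Those that rose were Postn, Thbs1, Tnc, Lox, Serpinf1 and Dpt, and Sfrp2 fell. Over all genes tested, 4.84% were called higher and 4.52% lower, or 9.36% in either direction, against 13.3% of these genes higher and 2.22% lower. The median log2 change was 0.20 over the 45 genes and -0.03 over the whole table, and the change was above 0 for 36 of the 45 genes (80.0%) and for 44.6% of the table. That median was 0.08 with the skeletal muscle marker score as a covariate and 0.12 without WT replicate 1. The 45 genes were chosen with earlier results of these data known, so these shares and medians describe the list and are not a test. Of the 15 collagen chains 0 passed the limma test, with 2 at an unadjusted p under 0.05 in this fit, and 0 were called in the authors' deposited table. An unadjusted p under 0.05 was reached by 3145 of the 11834 genes of the whole table and by 13 of the 45 genes. Such counts for the collagens and the role groups below are to be read beside that share of the table. In bulk tissue, a larger share of fibroblasts and more RNA per fibroblast cannot be told apart. With the skeletal muscle marker score as a covariate 1 gene rose, Postn, and 1 fell, Sfrp2, and 318 genes were called in the whole table, against 1108 without the covariate. The log2 changes of the genes no longer called were then 1.97 for Thbs1, 0.68 for Lox, 0.55 for Tnc, 0.43 for Serpinf1 and 0.30 for Dpt. With day 10 libraries alone Postn and Sfrp2 were again the 2 calls among the 45, and 268 were called in the whole table. With these fewer libraries the log2 changes were 2.35 for Thbs1, 0.67 for Lox, 0.59 for Tnc, 0.63 for Serpinf1 and 0.48 for Dpt.

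**Figure D1:**
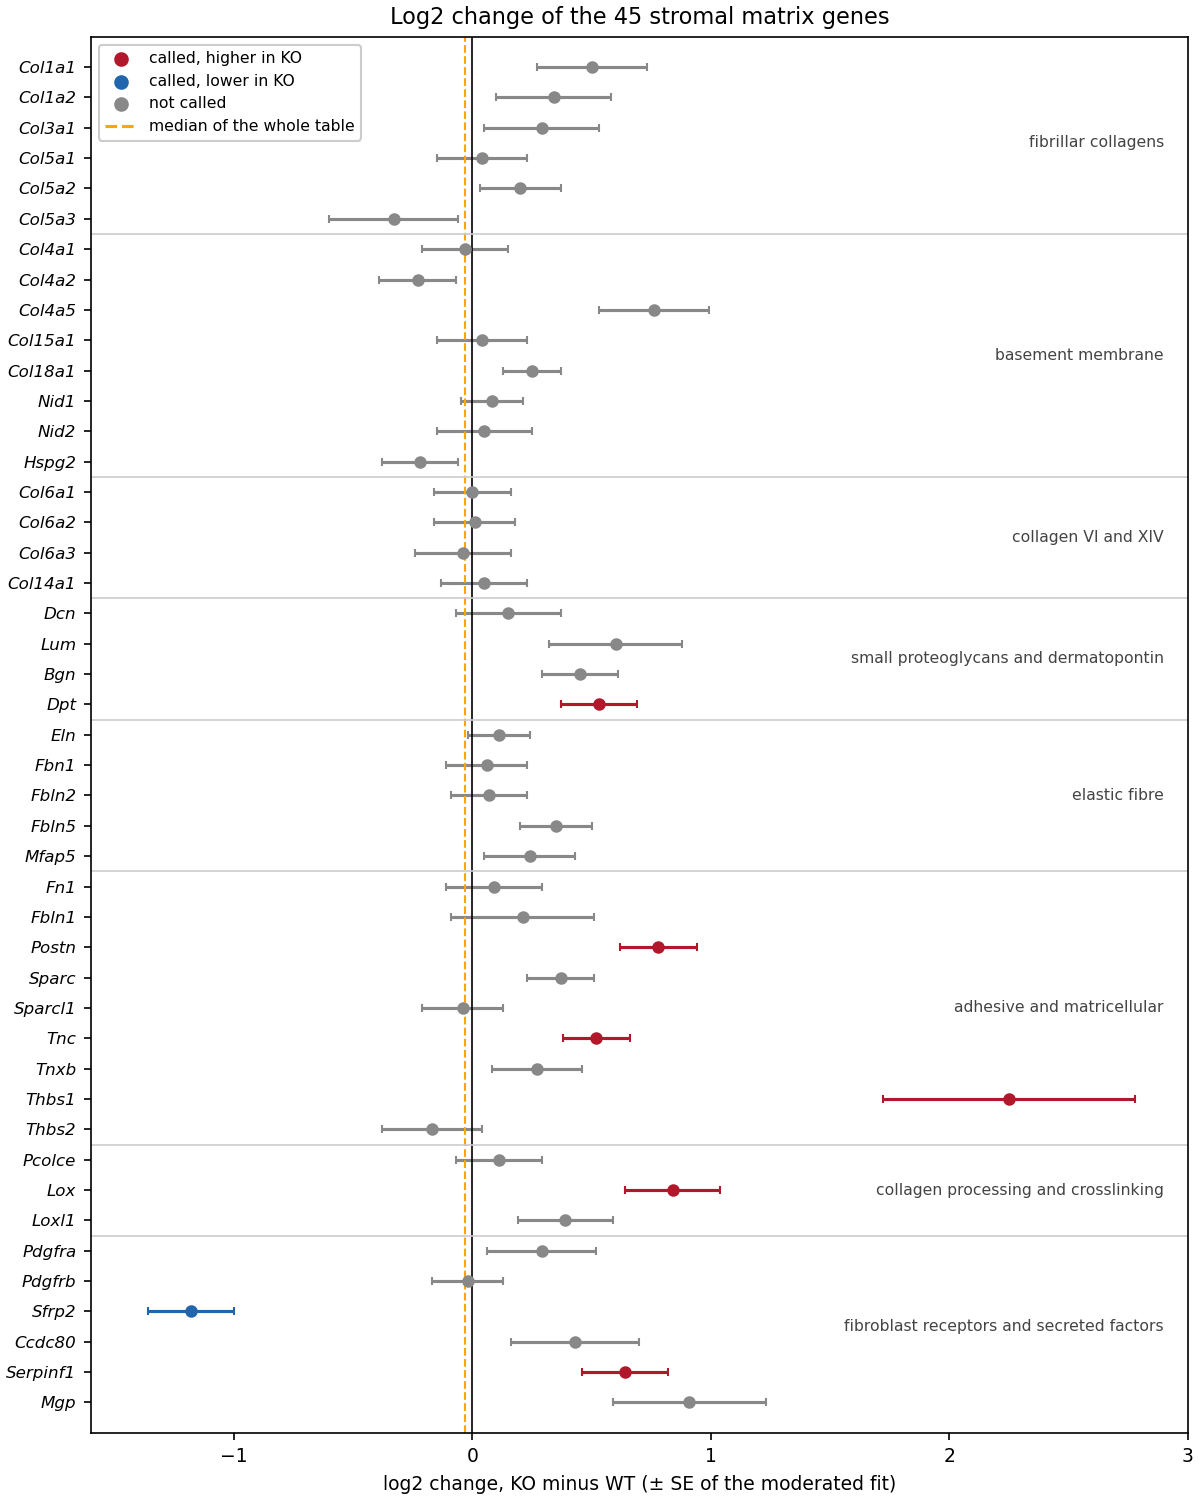
Log2 change of KO minus WT (x axis, points with SE of the moderated fit) for the 45 stromal matrix genes, grouped by role, with the median of the whole table as a dashed line. The matricellular gene Thbs1 stands furthest to the right at 2.25 and Sfrp2 furthest to the left at -1.18, and none of the 15 collagen chains is coloured as called.

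Of the 9 adhesive and matricellular genes, 3 rose, 0 fell and 6 did not pass. For this and the later role groups, the shares over the whole table were 4.84% higher and 4.52% lower. Postn encodes periostin, which binds collagen and integrins, and lies on chromosome 3 from 54361109 to 54391037 (mm10). Its lowest, median and highest values were 6.13, 6.32 and 7.05 log2 CPM in KO, against 5.34, 5.55, 5.85, 6.04 and 5.37 in WT replicates 1 to 5. Every KO library lay above every WT library. Among the 45 genes 3 had all KO libraries above WT (Postn, Tnc and Lox; 2.69% of the table) and 1 had all below (Sfrp2; 2.74%), against 5.43% of the table in either direction. The level was 6.41 ± 0.31 log2 CPM in KO (SD, n = 7) and 5.63 ± 0.30 in WT (SD, n = 5), a log2 change of 0.78 (SE 0.16, limma adjusted p = 0.0105) or 1.72-fold. Its call was kept without any 1 of the 12 libraries, with a highest adjusted p of 0.0338.

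Thbs1 encodes thrombospondin 1, a secreted glycoprotein that restrains vessel growth and can activate TGF-beta (chromosome 2, 118111876 to 118127133). It ran from 3.27 through a median of 4.87 to 6.20 log2 CPM in KO, against 2.09, 2.53, 3.52, 2.45 and 1.75 in WT replicates 1 to 5. The groups overlapped, since KO replicate 6 lay below WT replicate 3, and the other 6 KO libraries lay above all WT libraries. Its mean log2 change was 2.25 (SE 0.53, limma adjusted p = 0.0263), or 4.76-fold. The call ended without KO replicate 1 or without WT replicate 1, 2, 4 or 5, with an adjusted p of up to 0.0660. Its relative Thbs2 did not pass, with 1.08 ± 0.45 log2 CPM in KO (SD, n = 7) and 1.25 ± 0.27 in WT (SD, n = 5) and a log2 change of -0.17 (SE 0.21, limma adjusted p = 0.648).

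Tnc encodes tenascin C, a large glycoprotein that loosens the hold of cells on fibronectin (chromosome 4, 63959785 to 64047015). Its lowest, median and highest values were 6.21, 6.37 and 7.06 log2 CPM in KO, against 5.94, 6.06, 5.98, 5.55 and 6.14 in WT replicates 1 to 5. The 7 KO values were above the 5 WT values, by a narrow margin between KO replicate 5 and WT replicate 5. This gave a log2 change of 0.52 (SE 0.14, limma adjusted p = 0.0326), and the call ended without KO replicate 1 or any of WT replicates 1 to 4 (adjusted p of up to 0.0746). The related tenascin X gene, Tnxb, had 2.81 ± 0.35 log2 CPM in KO (SD, n = 7) and 2.54 ± 0.39 in WT (SD, n = 5) and did not pass (limma adjusted p = 0.388).

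Sparc encodes osteonectin, a collagen-binding glycoprotein, and had the highest level per length of all 45 genes. It held 6.63, 7.01 and 7.59 log2 CPM (lowest, median, highest) in KO, against 6.68, 6.90, 6.65, 6.62 and 6.50 in WT replicates 1 to 5. The groups overlapped, and the log2 change of 0.37 (SE 0.14) did not pass (limma adjusted p = 0.117). Fn1, which encodes fibronectin, the adhesive scaffold on which collagens assemble, had 3.16 ± 0.45 log2 CPM in KO (SD, n = 7) and 3.07 ± 0.28 in WT (SD, n = 5). Sparcl1, a Sparc relative, had a log2 change of -0.04 (SE 0.17), and Fbln1, a fibulin and the least abundant of the 45 genes per length, one of 0.21 (SE 0.30). On the linear scale the summed level of the 9 genes was 287 to 483 CPM in KO and 235 to 278 in WT.

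Of the 3 genes of collagen processing and crosslinking, 1 rose and 2 did not pass. Lox encodes lysyl oxidase, which crosslinks collagen and elastin. It ran from 1.28 through a median of 1.79 to 2.44 log2 CPM in KO, against 0.97, 0.96, 0.93, 1.12 and 0.70 in WT replicates 1 to 5. KO replicates 1 to 4 lay highest and replicates 5, 6 and 7 nearer to WT, and the groups did not overlap. Its log2 change was 0.84 (SE 0.20, limma adjusted p = 0.0206), or 1.79-fold, and the call ended without WT replicate 5 (adjusted p = 0.0540). Loxl1, a lysyl oxidase that favours elastin, had 1.14 ± 0.46 log2 CPM in KO (SD, n = 7) and 0.75 ± 0.09 in WT (SD, n = 5), with 5 KO values above the WT range and no call (limma adjusted p = 0.229). Pcolce, an enhancer of the protease that trims procollagen, had a log2 change of 0.11 (SE 0.18). Its lowest, median and highest values were 0.81, 1.48 and 1.93 log2 CPM in KO. WT replicates 1 to 5 held 1.12, 1.55, 1.33, 1.27 and 1.58.

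The small proteoglycans decorin (Dcn), lumican (Lum) and biglycan (Bgn) and the matrix protein dermatopontin (Dpt) bind collagen fibrils and set their spacing. Of these 4 genes 1 rose and 3 did not pass, and all 4 log2 changes were above 0, with a median of 0.49. Dpt (chromosome 1, 164796644 to 164824266) held 3.32, 3.82 and 4.28 log2 CPM (lowest, median, highest) in KO, against 2.94, 3.22, 3.43, 3.51 and 3.60 in WT replicates 1 to 5. KO replicate 6 lay among the WT values and the other 6 KO libraries above them. The log2 change was 0.53 (SE 0.16, limma adjusted p = 0.0499), at the threshold, and the call ended when any library other than KO replicate 6 was left out (adjusted p of up to 0.128). In the authors' deposited table Dpt has an adjusted p of 0.0511. Dcn had the highest log2 CPM of the 4 and did not pass, with 4.95, 5.37 and 6.14 (lowest, median, highest) in KO, against 4.60, 5.28, 5.41, 5.73 and 5.33 in WT replicates 1 to 5. Bgn and Lum had log2 changes of 0.45 (SE 0.16) and 0.60 (SE 0.28), with limma adjusted p of 0.0953 and 0.198, and Bgn was called without KO replicate 6 (adjusted p = 0.0150).

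The 6 fibroblast receptor and secreted factor genes gave 1 rise, 1 fall and 4 without a call. Sfrp2 encodes a secreted frizzled-related protein that modulates Wnt signalling and is made by fibroblasts (chromosome 3, 83766321 to 83774316). It ran from 2.00 through a median of 2.32 to 2.96 log2 CPM in KO, against 3.73, 3.52, 2.97, 3.57 and 4.05 in WT replicates 1 to 5. Every KO library lay below every WT library, though KO replicate 5 at 2.96 and WT replicate 3 at 2.97 nearly met. The difference on the log2 scale was -1.18 (SE 0.18, limma adjusted p = 0.00304), and the call was kept without any 1 of the 12 libraries, with a highest adjusted p of 0.0106. The annotated antisense gene Gm26771 covers 16.1% of the exon length of Sfrp2 on the opposite strand. The sources used here do not say whether counting used strand, so reads of the pair may be mixed.

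Serpinf1 encodes pigment epithelium-derived factor, a collagen-binding secreted serpin (chromosome 11, 75409769 to 75422701). It held 2.46, 3.18 and 3.66 log2 CPM (lowest, median, highest) in KO, against 2.11, 2.57, 2.69, 2.22 and 2.56 in WT replicates 1 to 5. KO replicate 6 lay among the WT values, and the other 6 KO libraries lay above them. The log2 change was 0.64 (SE 0.18, limma adjusted p = 0.0354), and the call ended for 7 of the 12 libraries left out in turn: KO replicates 1 to 3 and WT replicates 1, 2, 4 and 5 (adjusted p of up to 0.0981). Mgp, matrix Gla protein, an inhibitor of calcification, had 2.20 ± 0.56 log2 CPM in KO (SD, n = 7) and 1.29 ± 0.67 in WT (SD, n = 5) and did not pass (log2 change 0.91, SE 0.32, limma adjusted p = 0.0897), but was called without KO replicate 7 or WT replicate 3. Ccdc80, a secreted matrix protein, had the highest log2 CPM of the group, with 3.02, 3.80 and 4.62 (lowest, median, highest) in KO, against 3.22, 4.04, 3.51, 3.41 and 3.18 in WT replicates 1 to 5, and was not called (limma adjusted p = 0.331).

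The platelet-derived growth factor receptors mark stromal cells, Pdgfra fibroblasts and Pdgfrb fibroblasts and pericytes. Pdgfra had 2.16 ± 0.48 log2 CPM in KO (SD, n = 7) and 1.87 ± 0.40 in WT (SD, n = 5), with a log2 change of 0.29 (SE 0.23). Pdgfrb had 1.92 ± 0.33 log2 CPM in KO (SD, n = 7) and 1.94 ± 0.13 in WT (SD, n = 5), with a log2 change of -0.02 (SE 0.15). Neither receptor passed the limma test (adjusted p = 0.455 and 0.946). The direction for Pdgfrb turned under the alternative scaling by cyclic loess (0.02).

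**Figure D2:**
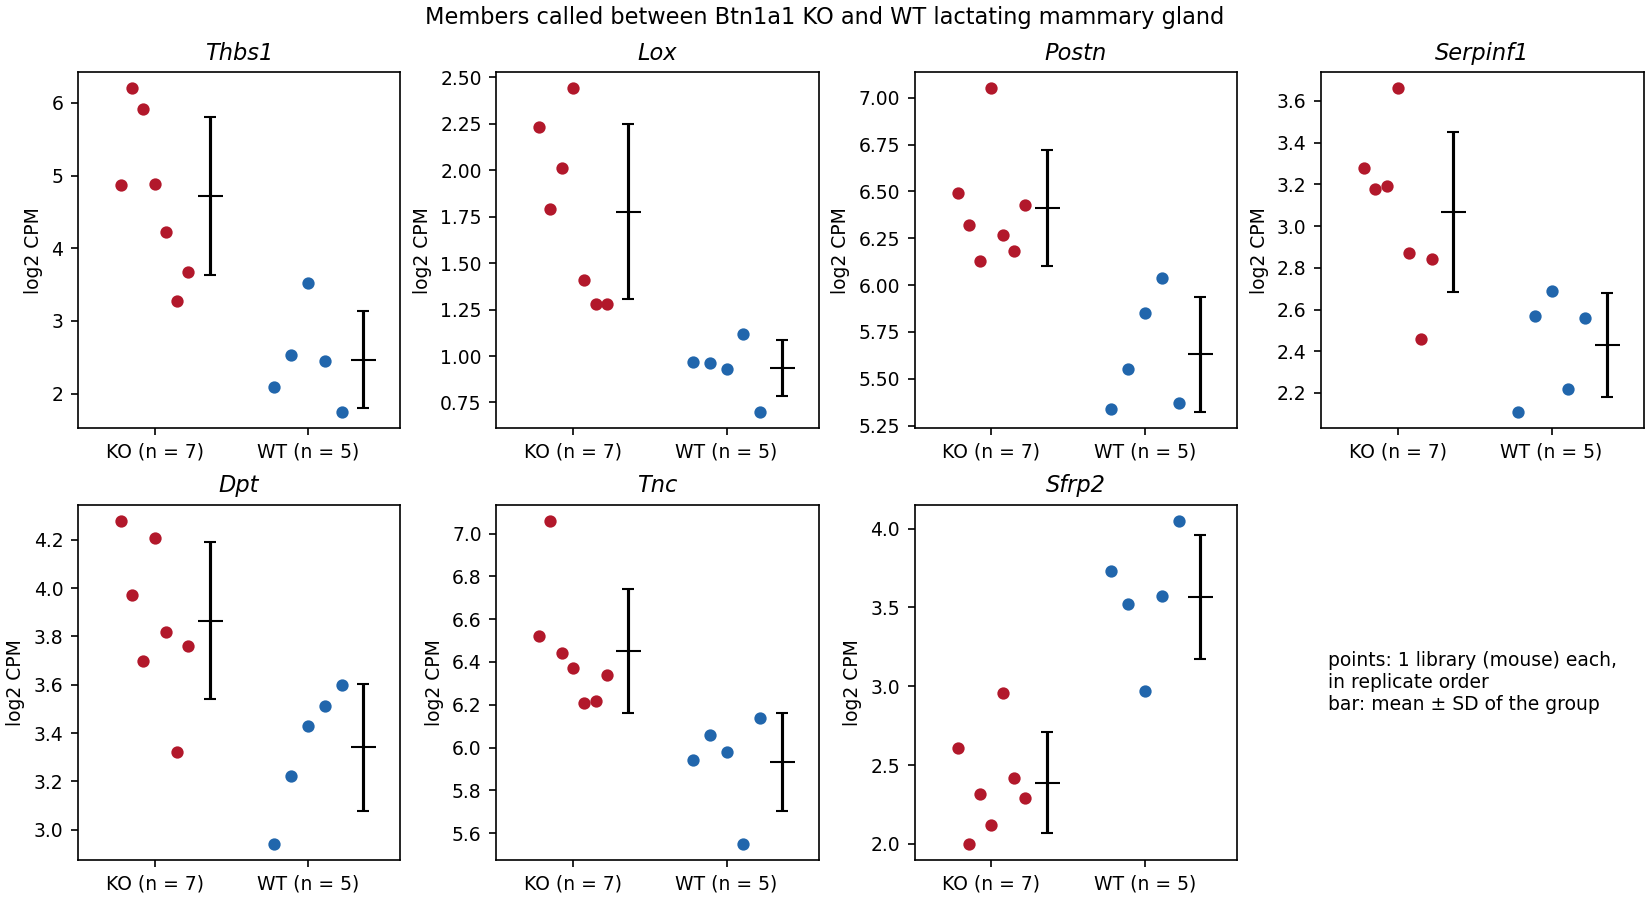
Log2 CPM (y axis) of the 7 called genes in each KO library (red) and WT library (blue), with the mean and SD of each group beside the points. KO libraries lie above all WT libraries for Lox, Postn and Tnc and below them for Sfrp2, while KO replicate 6 reaches into the WT values for Thbs1, Serpinf1 and Dpt.

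The stretches upstream of Postn, Tnc and Dpt, which rose, and of Sfrp2, which fell, are shown so that called genes of either direction can be read side by side. They come from RefSeq (GRCm38.p6, the same coordinates as mm10), run 5′ to 3′ on the strand of the gene and end at the last base before the annotated start, leaving out bases that any GENCODE M21 exon covers. Capitals mark matches, on either strand, to the box of the TATA type, spelled TATAAA, to the box of the GC type, spelled GGGCGG, to the CCAAT box, or to the AP-1 element, spelled TGANTCA.
Postn, chr3:54360857-54361106, plus strand: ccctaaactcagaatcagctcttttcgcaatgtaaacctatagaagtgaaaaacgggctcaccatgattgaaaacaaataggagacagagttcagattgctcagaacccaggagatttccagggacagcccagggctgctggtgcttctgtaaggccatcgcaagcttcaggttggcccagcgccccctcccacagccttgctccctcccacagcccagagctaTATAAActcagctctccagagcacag
Tnc, chr4:64047016-64047265, minus strand: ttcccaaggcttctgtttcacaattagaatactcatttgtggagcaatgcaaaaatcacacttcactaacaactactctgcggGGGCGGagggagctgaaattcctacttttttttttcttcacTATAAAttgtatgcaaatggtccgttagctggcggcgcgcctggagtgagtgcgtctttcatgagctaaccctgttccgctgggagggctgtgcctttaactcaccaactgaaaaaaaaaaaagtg
Dpt, chr1:164796413-164796643, plus strand: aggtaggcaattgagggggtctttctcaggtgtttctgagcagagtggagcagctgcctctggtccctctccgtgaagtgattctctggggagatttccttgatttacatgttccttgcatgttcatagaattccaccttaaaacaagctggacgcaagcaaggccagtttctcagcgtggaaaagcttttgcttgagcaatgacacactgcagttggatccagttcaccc
Sfrp2, chr3:83766071-83766320, plus strand: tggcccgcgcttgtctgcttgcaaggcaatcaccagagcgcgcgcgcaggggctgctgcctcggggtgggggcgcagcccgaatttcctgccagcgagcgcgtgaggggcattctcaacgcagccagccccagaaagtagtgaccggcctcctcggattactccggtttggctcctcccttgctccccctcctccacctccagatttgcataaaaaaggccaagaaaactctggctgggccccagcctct

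In these windows of 250 bases Postn and Tnc each hold 1 TATA box match, close to the start in Postn, and Tnc holds 1 GC box match. Dpt and Sfrp2 hold none of the 4 motifs, and Serpinf1, whose window is not printed, holds 3 CCAAT box matches. A RefSeq window was at hand for 29 of the 45 genes. Of the 29, 4 hold a TATA box match, 15 a GC box, 10 a CCAAT box and 2 an AP-1 match (Col6a1 and Tnxb). Among all 32851 windows of the same length the shares are 12.4%, 32.7%, 33.8% and 6.7% in that order. A match describes letters only, and neither Col6a1 nor Tnxb was called.

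The 6 fibrillar collagen genes, which encode chains of collagens I, III and V, gave 0 rises and 0 falls in limma, 0 at an unadjusted p under 0.05, and 0 calls in the authors' deposited table. Col3a1, the chain of collagen III, was the most abundant of them per length. It ran from 5.92 through a median of 6.71 to 7.52 log2 CPM in KO, against 6.13, 5.98, 6.48, 6.49 and 6.36 in WT replicates 1 to 5, and its log2 change was 0.29 (SE 0.24, limma adjusted p = 0.459). Col1a1, a chain of collagen I, had the smallest adjusted p of the 6. Its lowest, median and highest values were 3.64, 4.23 and 5.30 log2 CPM in KO, against 3.79, 3.77, 3.73, 3.89 and 3.82 in WT. The WT libraries lay within an SD of 0.06 while the KO libraries spread over an SD of 0.56, on both sides of WT. The log2 change was 0.50 (SE 0.23, limma adjusted p = 0.188), and 0.33 without KO replicate 4. Its unadjusted p was 0.0501 here (limma) and 0.0440 in the authors' deposited table (limma voom). Col1a2, the partner chain in collagen I, had a log2 change of 0.34 (SE 0.24), and the collagen V chains Col5a1, Col5a2 and Col5a3 had 0.04, 0.20 and -0.33.

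The 8 basement membrane genes gave 0 rises and 0 falls in limma, with 2 at an unadjusted p under 0.05 (Col4a5 and Col18a1) and 0 calls in the authors' deposited table. Collagen IV is built from different chain sets. The chains of Col4a1 and Col4a2 form the common network, and those of Col4a5 and Col4a6 take part in networks of more limited distribution, under smooth muscle and some epithelia. Col4a1, the most abundant of the 8 in log2 CPM, held 4.99, 5.58 and 6.23 (lowest, median, highest) in KO, against 5.40, 6.02, 5.52, 5.60 and 5.35 in WT replicates 1 to 5, with a log2 change of -0.03 (SE 0.18). Col4a2 had 4.66 ± 0.31 log2 CPM in KO (SD, n = 7) and 4.90 ± 0.29 in WT (SD, n = 5), with a log2 change of -0.23 (SE 0.16, limma adjusted p = 0.367).

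Col4a5 held 2.97, 3.45 and 4.27 log2 CPM (lowest, median, highest) in KO, against 2.79, 2.51, 3.15, 2.74 and 2.85 in WT replicates 1 to 5. KO replicates 1, 2, 3 and 4 lay above all WT libraries, and KO replicates 5, 6 and 7 among them. The log2 change of 0.76 (SE 0.23, limma adjusted p = 0.0583) missed the threshold narrowly, and the gene was called without KO replicate 5, 6 or 7 (lowest adjusted p 0.0279) and with lactation day as a covariate (0.0396). Its adjusted p was 0.218 on day 10 alone, 0.213 with the muscle score and up to 0.131 with 1 library left out. Col4a6, which is not one of the 45 genes and is named here, after its values were seen, as the neighbour of Col4a5, held 1.87, 2.19 and 2.93 log2 CPM (lowest, median, highest) in KO, against 1.73, 1.51, 1.41, 1.55 and 2.09 in WT. It also missed the threshold (log2 change 0.63, SE 0.19, limma adjusted p = 0.0555), and KO replicates 1, 2, 3 and 4 were again the 4 above all WT libraries.

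**Figure D3:**
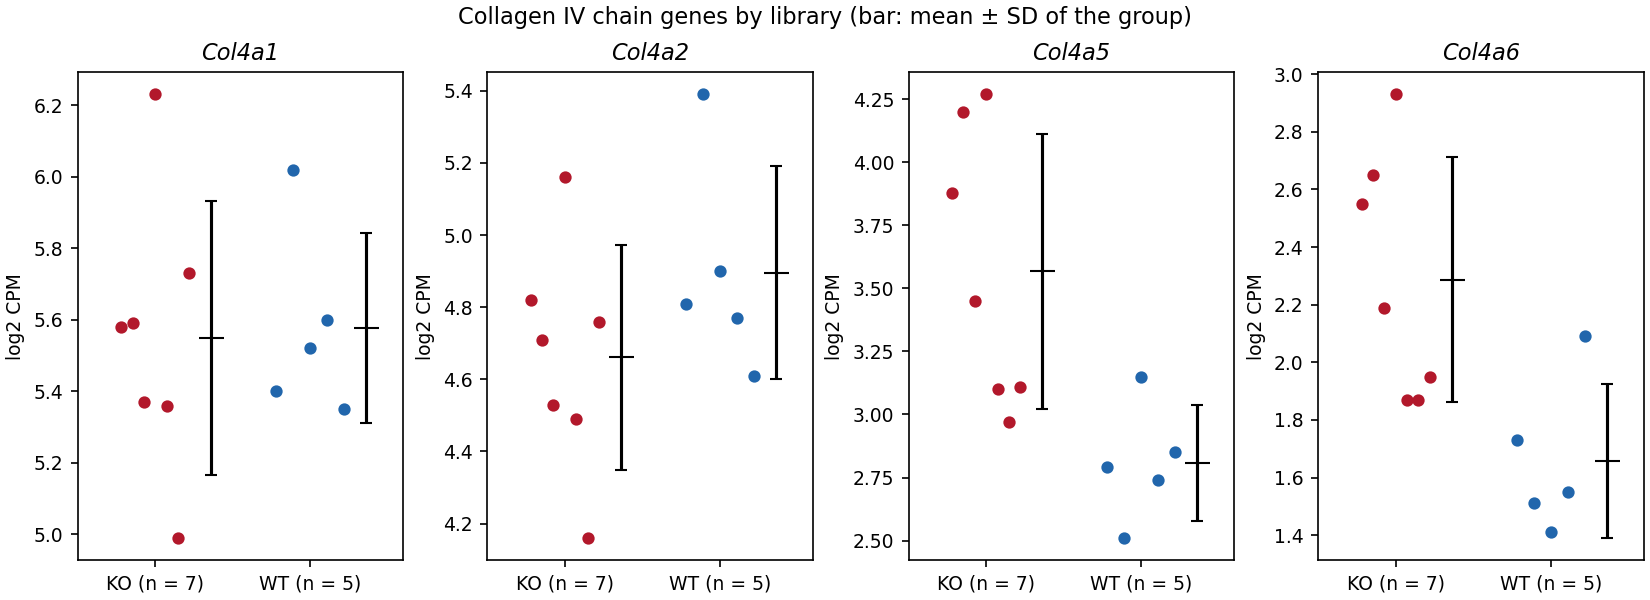
Log2 CPM (y axis) of 4 collagen IV chain genes in each KO library (red) and WT library (blue), with the mean and SD of each group. KO and WT overlap for Col4a1 and Col4a2, while KO replicates 1 to 4 lie above all WT libraries for Col4a5 and Col4a6, neither of which passed the test.

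Both pairs lie head to head. Col4a1 (minus strand) and Col4a2 (plus strand) on chromosome 8 have annotated starts at 11312826 and 11312805 (GENCODE M21, mm10), so that their annotated first exons overlap by 22 bases, and reads there cannot be given to either gene without strand. Col4a5 (plus strand) starts at 141475385 on chromosome X and Col4a6 (minus strand) at 141474076, with 1308 bases between them. The stretches next to these 2 starts are shown because the 2 genes share this interval, with the same capitals as above.
Col4a5, chrX:141475169-141475384, plus strand: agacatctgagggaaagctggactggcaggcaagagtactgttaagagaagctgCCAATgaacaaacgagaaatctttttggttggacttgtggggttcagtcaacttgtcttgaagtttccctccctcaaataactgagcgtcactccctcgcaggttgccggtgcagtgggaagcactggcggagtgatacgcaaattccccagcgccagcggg
Col4a6, chrX:141474077-141474326, minus strand: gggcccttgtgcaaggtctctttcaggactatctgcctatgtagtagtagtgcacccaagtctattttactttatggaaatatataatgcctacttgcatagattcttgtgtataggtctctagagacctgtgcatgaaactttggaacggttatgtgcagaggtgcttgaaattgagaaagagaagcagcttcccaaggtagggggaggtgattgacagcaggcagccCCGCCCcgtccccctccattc

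The RefSeq window of Col4a5 holds 1 CCAAT box match and 1 GC box match, the GC box within the 34 bases left out above, and that of Col4a6 holds 1 GC box match, read on the other strand.

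Of the other basement membrane genes, Col18a1, the source of endostatin, had 2.69 ± 0.17 log2 CPM in KO (SD, n = 7) and 2.44 ± 0.23 in WT (SD, n = 5), with a log2 change of 0.25 (SE 0.12, limma adjusted p = 0.185). Hspg2, which encodes the proteoglycan perlecan, had a log2 change of -0.22 (SE 0.16), and Col15a1 one of 0.04 (SE 0.19). The nidogens, which link collagen IV to laminin, had log2 changes of 0.08 (Nid1, SE 0.13) and 0.05 (Nid2, SE 0.20). The gene Rtraf covers 8.45% of the exon length of Nid2 on the opposite strand, which makes the Nid2 level less certain.

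Collagen VI forms beaded filaments around cells, and collagen XIV coats fibrils. Their 4 genes gave 0 rises and 0 falls in limma, 0 at an unadjusted p under 0.05 and 0 calls in the authors' deposited table. Col6a1, the most abundant, held 3.31, 3.77 and 4.34 log2 CPM (lowest, median, highest) in KO, against 3.38, 3.67, 3.89, 3.81 and 3.73 in WT replicates 1 to 5, and had a log2 change of 0.00 (SE 0.16). Col6a2, Col6a3 and Col14a1 had log2 changes of 0.01, -0.04 and 0.05, and Col14a1, with the smallest adjusted p of the 4 (limma, 0.881), held 2.66, 2.91 and 3.53 log2 CPM in KO, against 2.52, 2.85, 3.38, 3.18 and 2.91 in WT. All 3 collagen VI chains were highest in KO replicate 4.

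The 5 elastic fibre genes gave 0 rises and 0 falls in limma, 1 at an unadjusted p under 0.05 (Fbln5) and 0 calls in the authors' deposited table. Fbln5, a fibulin needed for elastic fibre assembly, held 1.63, 1.87 and 2.42 log2 CPM (lowest, median, highest) in KO, against 1.37, 1.66, 1.88, 1.46 and 1.72 in WT replicates 1 to 5, with a log2 change of 0.35 (SE 0.15, limma adjusted p = 0.146). Eln, which encodes elastin, had a log2 change of 0.11 (SE 0.13), Fbn1, the microfibril protein fibrillin, 0.06 (SE 0.17), Fbln2 0.07 (SE 0.16) and the microfibril protein gene Mfap5 0.24 (SE 0.19). Fbn1, the most abundant of them in log2 CPM, ran from 2.78 through 2.95 to 3.76 in KO, against 3.22, 2.91, 3.00, 3.24 and 3.04 in WT. The gene Gm9913 covers 20.1% of the exon length of Fbn1 on the opposite strand.

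Across libraries, KO replicate 4, the 1 KO gland taken on day 11, stood out. It held the highest value of all 12 libraries for 26 of the 45 genes and for 12 of the 15 collagen chains, and 34 of the 45 genes lay above all WT libraries in it. KO replicate 6 held the lowest value for 14 genes, with 4 genes above all WT libraries and 16 below them, and WT replicate 1 the lowest for 13. These counts were not made over the whole table. They describe the 45 genes and cannot show whether these differ from other genes in the same libraries. The median difference of the 45 genes from their WT means was 0.65 log2 in KO replicate 4 and -0.13 in KO replicate 6, and ran from -0.05 to 0.42 in the other KO libraries and from -0.24 to 0.07 in the WT libraries. Postn, Tnc and Lox lay above all WT libraries, and Sfrp2 below them, in KO replicate 6 too.

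**Figure D4:**
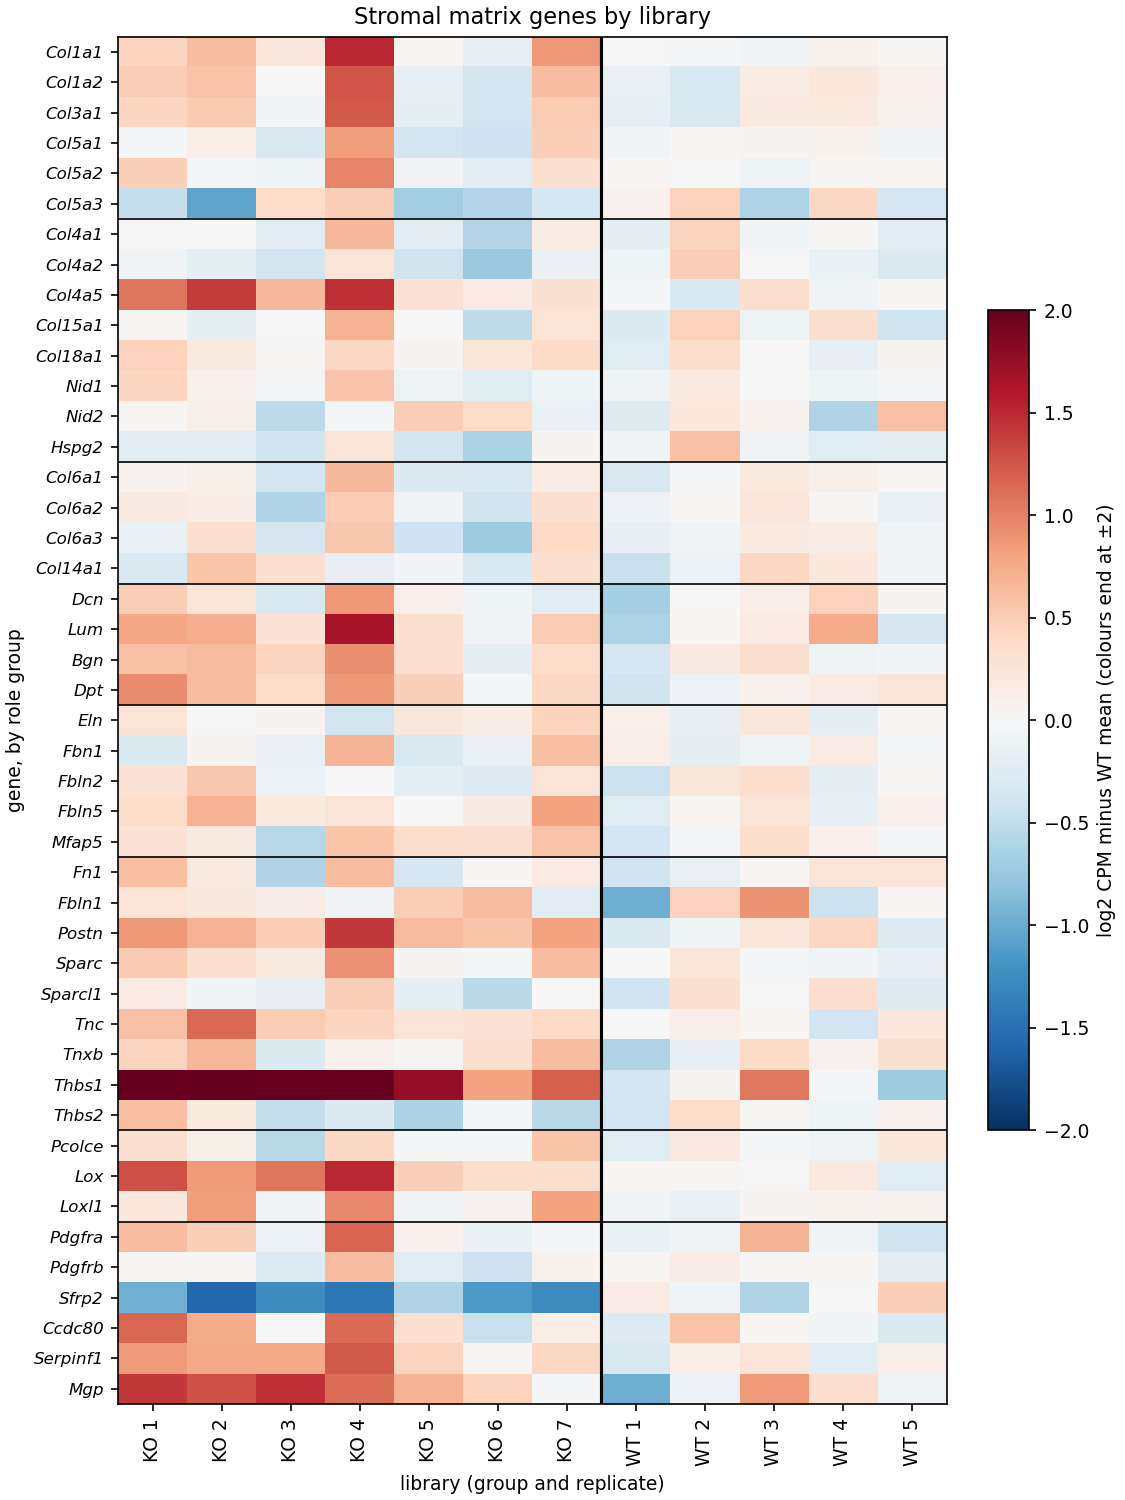
Log2 CPM of each gene (rows, by role group) in each library (columns, KO left of WT) minus the mean of the WT libraries, as colour. KO replicate 4 is red over most collagen rows and KO replicate 6 is pale or blue, while the row of Sfrp2 is blue and that of Thbs1 red in all KO libraries.

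The SD was larger in KO than in WT for 35 of the 45 genes (77.8%) and for 63.1% of the whole table, and the median SD of the 45 genes was 0.38 in KO and 0.26 in WT, against 0.22 in KO and 0.19 in WT over the table. The 6 fibrillar collagen genes summed to 180, 187, 135, 315, 120, 107 and 197 CPM in KO replicates 1 to 7, against 126, 118, 147, 154 and 141 in WT replicates 1 to 5. KO replicate 4 was the highest and KO replicate 6 the lowest. The skeletal muscle sum, 1690 CPM in KO replicate 4 and 103 in KO replicate 6, was highest and lowest in the same KO libraries. Over all 45 genes the sum was 677 to 1332 CPM in KO and 652 to 789 in WT, or 0.069% to 0.135% of each library's CPM in KO and 0.066% to 0.080% in WT. Without KO replicate 4, 5 genes rose and 1 fell, since Dpt lost its call, 896 genes were called in the whole table, and the median log2 change of the 45 genes was 0.14.

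**Figure D5:**
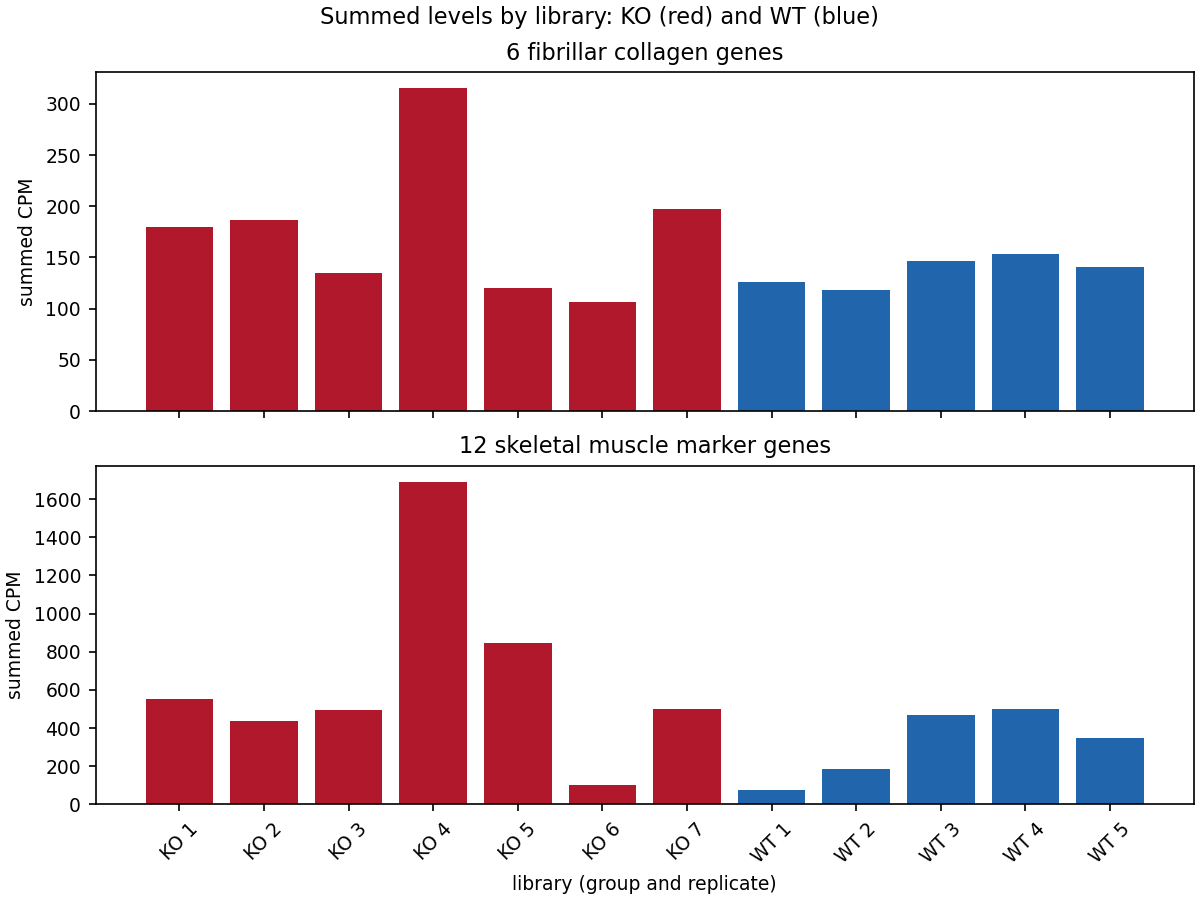
Summed CPM (y axes, from 0) of the 6 fibrillar collagen genes (top) and the 12 skeletal muscle marker genes (bottom) in each KO (red) and WT (blue) library. KO replicate 4 is the highest in both panels, at 315 and 1690 CPM, and the WT libraries lie between 118 and 154 CPM in the top panel.

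Levels can be set side by side between genes only per length, here as mean log2 CPM minus the log2 of the annotated exon length in kilobases. This length joins the exons of all annotated transcripts of a gene, such as 12.43 kilobases for Col1a2 and 6.56 for Col1a1. It can exceed the length of the RNA present, by an unknown amount that may differ between genes, so the order is approximate. On this scale Sparc led with 5.12 in KO and 4.75 in WT. Tnc had 3.49 in KO and 2.98 in WT, where it was 2nd and 3rd of the 45. Col3a1 had 3.29 in KO and 2.99 in WT, where it was 4th and 2nd, and Postn had 3.29 in KO and 2.51 in WT, where it was 3rd and 8th. Fbln1 was lowest, at -2.13 in KO and -2.34 in WT. Thbs1 was 11th of the 45 in KO and 29th in WT (2.12 in KO and -0.13 in WT, log2 CPM per kilobase), and Sfrp2 was 21st in KO and 9th in WT (1.28 in KO and 2.46 in WT). These orders are descriptions, and neighbours in them were not tested against each other.

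Genes of the same pathway outside the 45 were counted from 3 lists, also chosen with earlier results of these data known. Of 22 measured enzymes and chaperones of collagen synthesis 1 rose (4.5%), 1 fell (4.55%) and 20 did not pass, with a median log2 change of -0.02. These shares lie near those of the whole table, 4.84% higher and 4.52% lower. Mia3 encodes TANGO1, which loads collagen into carriers at the endoplasmic reticulum, and fell to 6.30 ± 0.19 log2 CPM in KO (SD, n = 7), against 6.83 ± 0.08 in WT (SD, n = 5), with no overlap of the groups (log2 change -0.53, SE 0.09, limma adjusted p = 0.0038). P3h2, a prolyl hydroxylase that acts on collagen IV, rose to 3.42 ± 0.48 log2 CPM in KO (SD, n = 7), against 2.46 ± 0.12 in WT (SD, n = 5), again with no overlap (log2 change 0.96, SE 0.20, limma adjusted p = 0.0111). Ppib, which encodes a collagen-folding cyclophilin, had a log2 change of 0.22 (SE 0.07, limma adjusted p = 0.0707).

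Of 31 measured other matrix genes 4 rose (12.9%, against 4.84% of the table), 0 fell (4.52% of the table) and 27 did not pass, with a median log2 change of 0.12. Tgfbi, an integrin-binding protein related to periostin, rose by 0.90 (SE 0.17, limma adjusted p = 0.00606), with 3.21 ± 0.39 log2 CPM in KO (SD, n = 7) and 2.32 ± 0.16 in WT (SD, n = 5). Mfap4, a microfibril-associated glycoprotein, rose by 1.20 (SE 0.28, limma adjusted p = 0.0184, or up to 0.0547 without WT replicate 1 or 2). Efemp2, fibulin 4, which brings lysyl oxidase to elastic fibres, rose by 0.78 (SE 0.19, limma adjusted p = 0.0205, or 0.0611 without WT replicate 1), and Smoc2, a matricellular protein named after its values were seen, by 0.52 (SE 0.15, limma adjusted p = 0.0404), a call that ended without any 1 of 9 libraries. Matn2, also named after its values were seen, was called lower in the authors' deposited table (log2 change -0.50, limma voom adjusted p = 0.0427). Here it missed the threshold (-0.48, SE 0.15, limma adjusted p = 0.0599).

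Of 27 measured other fibroblast markers 3 rose (11.1%, against 4.84% of the table), 0 fell (4.52% of the table) and 24 did not pass, with a median log2 change of 0.24. Igf1, the growth factor that stroma supplies to epithelium, rose to 5.95 ± 0.38 log2 CPM in KO (SD, n = 7), against 4.71 ± 0.32 in WT (SD, n = 5), with no overlap of the groups (log2 change 1.25, SE 0.19, limma adjusted p = 0.00308). The rises of Vim, the intermediate filament of mesenchymal cells (0.62, SE 0.18, limma adjusted p = 0.0440), and Islr, a marker of mesenchymal cells (0.49, SE 0.14, limma adjusted p = 0.0432), lay near the threshold and ended without any 1 of 8 and 9 libraries. The basal and the macrophage marker sums each lay above the WT range in 5 of 7 KO libraries. Their part in these rises, and in those of the 45 genes, was not tested.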

How the data were processed

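PolyA RNA of 12 lactating mammary glands (7 KO, 5 WT) was sequenced, 1 library per mouse. Per the submitters' processing notes, the tools were RSEM 1.3.0, STAR 2.5.2b, limma 3.34.5, Trimmomatic 0.33 and bcl2fastq 2.17, with builds mm10 and hg19 named. The sources used here give neither the annotation nor the gene filter. In 1 table the authors deposited log2 CPM per library (quantile-normalized: 67.1% of ranks within 0.01 log2 over the libraries), group means and SDs, and, from their own limma voom fit, the log2 fold change, a signed fold change and t statistic (scores), the p-value and adjusted p-value. Total reads are not in it, so depth is unknown and count models were not used.

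Here the deposited log2 values were fitted by genotype with limma 3.58.1 (R 4.3.3; eBayes with trend and robust options), and p-values were adjusted (Benjamini-Hochberg) over the 11834 genes and called under 0.05. SE is that of the moderated fit. The fit was tested on simulated data. Exon lengths, overlaps and gene positions came from GENCODE M21 and upstream windows from RefSeq, taking the window nearest to the GENCODE start. Summed CPM are sums of 2 to the power of the log2 values. Python 3.11.15 and matplotlib 3.10.9 made the tables and figures.

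The 45 genes, the role groups, the 3 related lists and the 8 marker lists were chosen with earlier results of these data known. Named with values were all called members, the most abundant member and that of smallest adjusted p in each role group, and up to 3 genes of smallest adjusted p per related list. Further members are given by their change. Equal replicate numbers do not pair mice. The alternatives are those under the processing heading below.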

Additional observations from a re-analysis of the deposited data

Results flagged for a closer look

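Each gene was checked in each group for a library far from the others by Dixon's ratio, in 90 groups of values, of which 5 (5.6%) were marked; chance marks about 1 in 20. In KO, replicate 4 lay above the rest for Postn, at 7.05 log2 CPM, replicate 2 above the rest for Tnc, at 7.06, and replicate 3 below the rest for Mfap5, at 0.51. In WT, replicate 2 lay above the rest for Hspg2, at 4.70 log2 CPM, and replicate 3 below the rest for Col5a2, at 3.30. The calls of Postn and Tnc were kept when the marked library was left out.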

How the results depend on the processing

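Sfrp2 was the 1 gene of the 45 called lower under every alternative run, left-out libraries included. At an adjusted p under 0.01, 0 of the 45 genes were higher and 249 genes were called in the whole table. The count of genes higher in KO, 6 as reported, was 1 with day 10 libraries alone, 1 with the skeletal muscle score as a covariate and 3 with plain eBayes, and 268 and 318 genes of the whole table were called in the first pair of these. Leaving out 1 library gave 2 to 8 genes higher (2 without KO replicate 1 or WT replicate 1, 2, 4 or 5; 8 without KO replicate 6) and 559 to 1327 in the whole table (559, 644, 696, 724 and 725 without WT replicates 1, 2 and 5, KO replicate 1 and WT replicate 3). With the replicate number as a block 10 were higher, and 1083 genes were called in the whole table. Numbers 6 and 7 exist only in KO, so under the block KO replicates 6 and 7 add nothing to the estimated change. That setting rests on replicates 1 to 5 of each group. Same-numbered samples did not deviate together (correlations of -0.162, 0.002, -0.17, 0.213 and 0.079 for numbers 1 to 5, with only numbers 4 and 5 correlating best with their own), so the samples share only a number. Directions of small changes turned. Under the block they were 0.05 for Col4a1, 0.00 for Col6a3, 0.00 for Fbn1 (just below 0), 0.05 for Sparcl1 and 0.04 for Pdgfrb. On day 10 alone they were -0.02 for Col5a1, -0.11 for Fbn1 and 0.04 for Thbs2. With the muscle score they were -0.12 for Col5a1, -0.16 for Col15a1, -0.02 for Nid1, -0.17 for Col6a1, -0.14 for Col6a2, -0.05 for Col14a1, -0.11 for Dcn, -0.02 for Fbn1 and -0.05 for Fn1. Library weights gave -0.01 for Col6a1 and cyclic loess 0.02 for Pdgfrb. Leaving out 1 library moved Col5a1 from -0.09 to 0.12, Col4a1 from -0.14 to 0.08, Col15a1 from -0.06 to 0.16, Nid2 from -0.11 to 0.19, Col6a1 from -0.10 to 0.07, Col6a2 from -0.07 to 0.11, Col6a3 from -0.14 to 0.07, Col14a1 from -0.06 to 0.16, Dcn from -0.01 to 0.27, Fbn1 from -0.04 to 0.12, Fbln2 from -0.03 to 0.16, Fn1 from -0.01 to 0.21, Fbln1 from -0.03 to 0.44, Sparcl1 from -0.14 to 0.04 and Pdgfrb from -0.13 to 0.04. The causes were not tested. The 7 called genes kept their direction in all 161 values, and 44 of these missed the threshold. Depth is unknown, and a fit without the authors' gene filter could not be made.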
